A study of Mus musculus with 24 samples.

Results

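Expression of Rest and of 8 genes for the corepressors that REST recruits was measured by RNA-seq in mouse cells. The 9 genes were taken by name: Rest, Rcor1, Rcor2, Rcor3, Sin3a, Hdac1, Hdac2, Kdm1a and Ehmt2. They are 9 of 51912 genes counted, and each of the 9 names matched a single gene of the count tables. All 9 reached 1 RPKM (read counts scaled to exon length and library size) in at least 1 library of each comparison and were tested.

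REST is a zinc finger repressor that binds a long DNA element called RE1, found near many genes used by neurons, and it keeps these genes silent outside the nervous system. Its N-terminal end recruits SIN3A, a scaffold that carries the histone deacetylases HDAC1 and HDAC2. Its C-terminal end recruits a CoREST protein (encoded by Rcor1, Rcor2 or Rcor3), which brings the same deacetylases together with the histone H3K4 demethylase LSD1 (Kdm1a), while the H3K9 methyltransferase G9a (Ehmt2) also acts at its sites. REST is abundant in embryonic stem cells and is known to decline as neurons form.

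The libraries came from wild-type ESCs of the strain C57BL/6 X 129S5, from NPs (neuronal progenitors made in culture from these ESCs through cell aggregates and retinoic acid), and from TET TKO ESCs, which carry a triple knockout of TET1/2/3 in the strain C57BL/6 X 129/sv, with 3 libraries per group. The wild-type cells were the line TC-1 and its derivatives, and the TET TKO cells were another line, so genotype, line and strain cannot be told apart. The other samples of the series measured methylation of inserted DNA fragments, among them 1 with a REST motif.

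Total counts were 20519702 to 23976914 per library in ESCs and NPs and 80704741 to 93210102 in TET TKO ESCs. The summed RPKM of Tet1, Tet2 and Tet3 was 81.7 to 87.2 in ESCs and 14.1 to 19.4 in TET TKO ESCs, and both Tet genes tested fell by at least 3-fold. All 8 pluripotency markers were lower in NPs (sum 2385 to 2473 RPKM in ESCs, 8.89 to 29.4 in NPs) and all 8 neural progenitor markers were higher (63.7 to 71.9 in ESCs, 340 to 486 in NPs). Markers of other cells also differed in NPs: 4 of 5 tested endoderm markers were higher (sum over 6 genes 1.07 to 1.94 RPKM in ESCs, 19.6 to 24.7 in NPs), and 2 of 4 tested trophoblast markers were higher and 1 lower (sum over 5 genes 4.72 to 10.3, against 112 to 128). No endoderm or trophoblast marker was at 0 counts in an NP library. Most of the trophoblast sum came from the single gene Krt8, whose mean was 6.14 RPKM for ESCs and 112 for NPs. The NP means of Gata3, Cdx2 and Elf5 were 3.84, 1.36 and 0.139 RPKM. Eomes, the marker called lower, went from 1.28 to 0.106 RPKM. Of 7 tested neuron markers 4 were higher and 1 lower in NPs (sum over 8 genes 121 to 138 RPKM in ESCs, 81.7 to 192 in NPs). Of the glial markers only 1 of 5 was tested and it was higher (sum 0.853 to 1.29 against 3.86 to 4.74), and the 1 mesoderm marker tested did not pass (sum 2.18 to 2.98 against 0.939 to 2.25). Of the markers called higher in NPs, 6 of the 8 for neural progenitors, all 4 for endoderm, 3 of 4 for neurons, 1 of 2 for trophoblast and the glial one were under 1 RPKM in every ESC library and were tested only through their NP level. In TET TKO ESCs edgeR called 1 of 8 pluripotency markers lower (sum 2131 to 2955 RPKM) and 1 of 3 tested mesoderm markers higher (7.83 to 14.0), and called none of the tested neural progenitor (sum 16.2 to 39.7), neuron (50.6 to 93.5), glial (2.33 to 5.53) or trophoblast (30.9 to 100.5) markers. DESeq2 called 3 of 8 pluripotency markers lower there and 1 of 3 tested mesoderm markers higher. It called 3 of 3 tested trophoblast markers and 1 of 2 glial markers higher. It also called 1 higher and 1 lower among both the 3 neural progenitor and the 4 neuron markers. An adjusted p under 0.001 was reached by 3.27% of all genes with edgeR and 20.5% with DESeq2. Krt8 again held most of the trophoblast sum of the knockout libraries, with a mean of 60.3 RPKM. Their means were 3.00 RPKM for Eomes, 1.98 for Gata3, 0.298 for Cdx2 and 0.098 for Elf5. The part of these other cells in the results was not tested.

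Rest had the largest difference of the 9 genes between ESCs and NPs. Rest (ENSMUSG00000029249, GRCm38, chromosome 5, 77265491 to 77286432, plus strand) stood at 72.6, 73.7 and 69.9 RPKM in the 3 ESC libraries and at 9.31, 10.8 and 8.21 RPKM in the 3 NP libraries. Every NP library lay far below every ESC library. The transcript fell 7.72-fold in NPs (log2 fold change -2.95 ± 0.12 SE, n = 3 per group, adjusted p = 8.67e-07 by edgeR's quasi-likelihood test), and Rest was the only 1 of the 9 genes past both the adjusted p threshold of 0.001 and the 3-fold limit, which 22.3% of the 15197 genes tested passed. In bulk libraries, fewer cells with Rest RNA and less Rest RNA per cell cannot be told apart, and counts per gene do not separate the isoforms of Rest.

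In relation to the other transcripts, Rest moved from the upper end of the distribution to its middle. Of the 15614 genes tested in either comparison, 96.0% had a lower mean RPKM than Rest in ESCs and 63.5% did in NPs. The TET TKO libraries held Rest at 79.9, 91.6 and 72.0 RPKM, a range that overlaps that of ESCs, and 96.0% of genes lay below it. The log2 difference from ESCs was 0.05, with a 95% interval of -0.16 to 0.26 (adjusted p = 0.733, edgeR), so the interval excludes a difference the size of that in NPs. Its sign turned, to -0.0037 with total counts as library sizes and to -0.025 without TET TKO replicate 2.

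**Figure D1:**
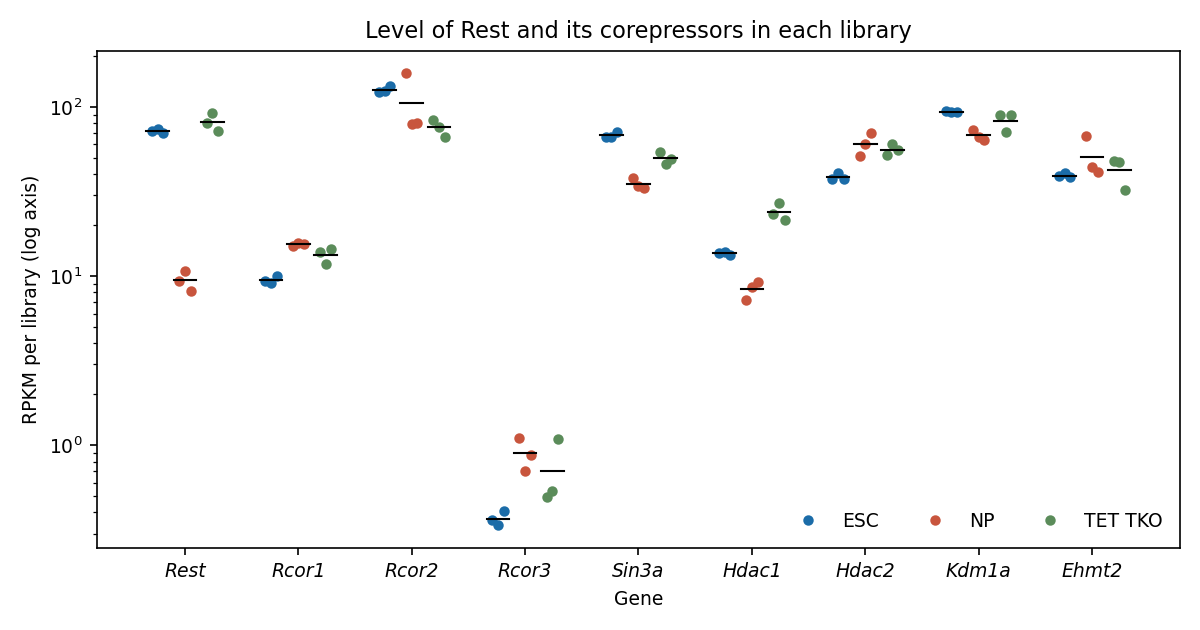
Level of each of the 9 genes in each library (points, RPKM on a log axis) for ESCs, NPs and TET TKO ESCs, with the mean of each group as a bar. The 3 NP libraries lie between 8.21 and 10.8 RPKM for Rest, far below the other 6 libraries, and Rcor3 lies near or below 1 RPKM in all 9.

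The genes whose pattern over the 9 libraries was closest to that of Rest were Palm3, Jade1, Sall4, Dock5 and Cbs. Closeness was the root mean square difference in log2(RPKM + 0.1) after each gene was centred on its own mean, and it ran from 0.154 for Palm3 to 0.190 for Cbs among 15613 genes searched. Sall4, a zinc finger factor of pluripotent cells, had mean levels of 93.6, 11.6 and 85.1 RPKM in ESCs, NPs and TET TKO ESCs. Jade1, a subunit of a histone acetyltransferase complex, had 53.8, 7.40 and 60.8 RPKM. The other three were lower in level with the same order of NPs against both kinds of ESC, at 17.8, 2.33 and 20.9 RPKM for Palm3, 12.3, 1.51 and 13.9 for Dock5, and 9.97, 1.40 and 13.0 for Cbs, the enzyme that forms cystathionine from homocysteine. These 9 libraries share their groups, so the likeness is a description of the 3 group levels and their spread.

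The RNA of 3 of the 9 genes differed between NPs and ESCs at the adjusted p threshold of 0.001, a share to be read against 33.9% of all genes tested. Rest and Sin3a were lower and Rcor1 was higher. At a looser threshold of 0.05, chosen after the data were seen, 7 of the 9 passed, against 64.1% of all genes. The median size of the log2 change was 0.69 over the 9 genes and 0.83 over all genes tested. The RPKM ranges of ESCs and NPs did not overlap for 8 of the 9, against 71.9% of all genes, and Rcor2 was the exception. DESeq2 put 7 of the 9 past 0.001, against 49.2% of all genes.

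**Figure D2:**
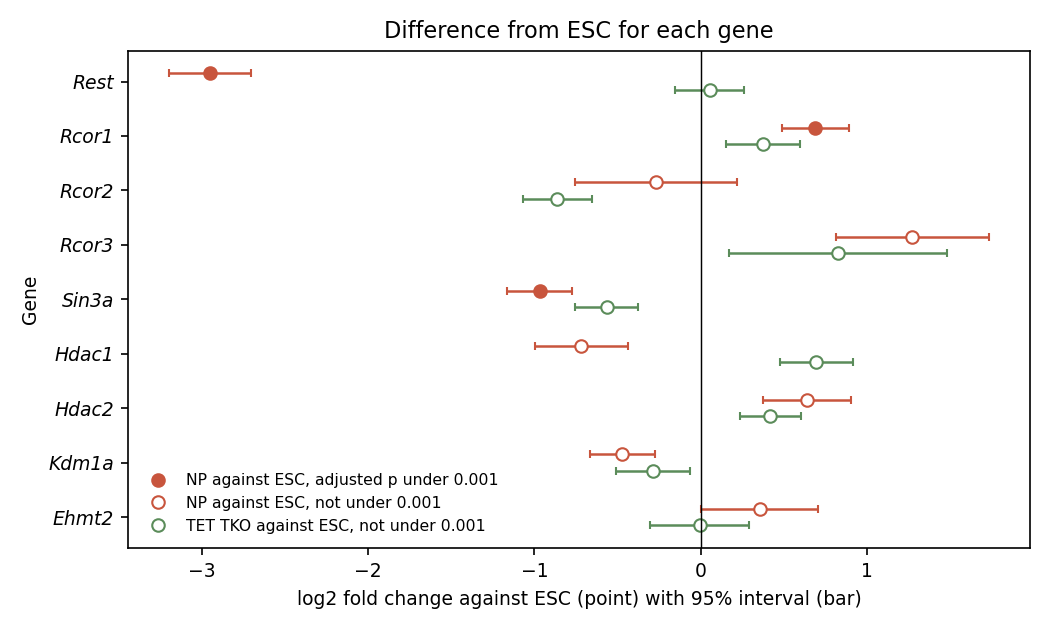
Log2 fold change of each of the 9 genes in NPs and, separately, with the TET knockout, each against ESCs (points) with 95% intervals (bars). Filled points passed an adjusted p of 0.001, which were Rest, Sin3a and Rcor1 in NPs, and no point for TET TKO ESCs is filled.

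Sin3a encodes the scaffold of the N-terminal arm of REST. Sin3a (ENSMUSG00000042557, chromosome 9, 57072040 to 57128366) stood at 66.5, 66.1 and 71.4 RPKM in ESCs, at 37.8, 34.3 and 33.1 in NPs and at 54.3, 46.1 and 49.1 in TET TKO ESCs. All NP libraries lay below all TET TKO libraries, and these lay below all ESC libraries. Sin3a fell 1.96-fold in NPs (log2 -0.97 ± 0.10 SE, adjusted p = 6.27e-05, edgeR) and kept passing with each library left out in turn, with adjusted p of at most 0.000745. Between TET TKO ESCs and ESCs the log2 difference was -0.57 ± 0.10 SE with adjusted p = 0.00435 by edgeR, above the threshold, while DESeq2 gave 3.19e-06. Transcripts annotated on the opposite strand share 3.81% of the exon bases of Sin3a (Man2c1os) and 0.149% (2700012I20Rik), and counting ignored the strand, but these held at most 59 counts in any library.

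Rcor1 encodes CoREST1, the first described partner of the REST C-terminal end. Rcor1 (ENSMUSG00000037896, chromosome 12, 111039351 to 111115901) stood at 9.38, 9.09 and 9.996 RPKM in ESCs, at 15.0, 15.8 and 15.5 in NPs and at 13.8, 11.7 and 14.5 in TET TKO ESCs. The ESC libraries lay below the other 6. Rcor1 rose 1.61-fold in NPs (log2 0.69 ± 0.10 SE, adjusted p = 0.000479, edgeR). The call was lost, with adjusted p of up to 0.00526, when any 1 of 5 of the 6 libraries was left out, and it stayed without NP replicate 1. For TET TKO ESCs the log2 difference was 0.37 ± 0.11 SE (adjusted p = 0.0393, edgeR).

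Rcor2 encodes the CoREST protein known to be most used in embryonic stem cells, and it had the highest RPKM of the 9 genes in ESCs and in NPs. Rcor2 (ENSMUSG00000024968, chromosome 19, 7267325 to 7275225) stood at 123, 124 and 133 RPKM in ESCs, at 158, 79.6 and 80.9 in NPs and at 84.1, 76.3 and 66.8 in TET TKO ESCs. NP replicate 1 stood above every ESC library and the other two NP libraries below every ESC library. The log2 difference between NPs and ESCs was -0.27, with a 95% interval of -0.76 to 0.22 (adjusted p = 0.365, edgeR). Without NP replicate 1 it was -0.68 with adjusted p = 0.000282. All TET TKO libraries lay below all ESC libraries, with a log2 difference of -0.86 ± 0.11 SE and adjusted p = 0.00126 by edgeR, just above the threshold, while DESeq2 gave 1.14e-10.

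Rcor3 encodes the third CoREST protein and was the lowest of the 9 genes in every library. Rcor3 (ENSMUSG00000037395, chromosome 1, 192098546 to 192138062) stood at 0.362, 0.336 and 0.406 RPKM in ESCs, at 1.11, 0.707 and 0.877 in NPs and at 0.493, 0.537 and 1.09 in TET TKO ESCs, with 100 to 136 counts per ESC library. It entered each test through a single library above 1 RPKM, NP replicate 1 and TET TKO replicate 3, so it is listed without weight on its direction. The log2 difference was 1.27 ± 0.23 SE in NPs (adjusted p = 0.00156, edgeR) and 0.83 ± 0.33 SE in TET TKO ESCs (adjusted p = 0.0929). Other transcripts on the opposite strand share 4.90% (Gm26879), 2.47% (Gm10516) and 0.976% (Gm37055) of its exon bases.

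Because these levels are per length, the 3 CoREST genes can be set against each other within a library. Rcor2 made up 92.6, 93.0 and 92.8% of their summed RPKM in ESCs, 90.8, 82.9 and 83.1% in NPs and 85.5, 86.1 and 81.1% in TET TKO ESCs. The mean share was 92.8% ± 0.156 for ESCs, 85.6% ± 4.49 for NPs and 84.2% ± 2.73 for TET TKO ESCs (SD, n = 3), and the ESC libraries lay above all others. The share of Rcor1 was 6.94% ± 0.144, 13.7% ± 4.38 and 15.0% ± 2.30 in the same order. A two-sided exact permutation test of 3 against 3 libraries gave p = 0.1 for the Rcor2 share in either comparison, which is the smallest p this design allows. Rcor2 held most of the CoREST RNA in all 9 libraries, at a lower and more scattered share in NPs than in ESCs.

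**Figure D3:**
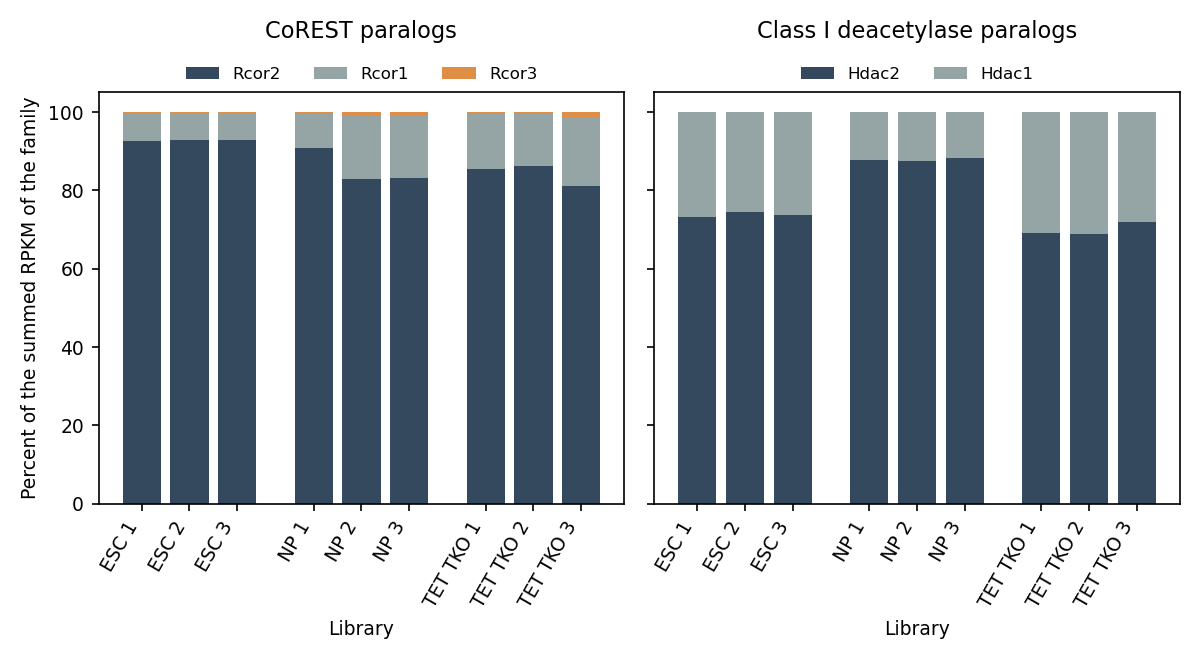
Share of each paralog in the summed RPKM of its family in each library (stacked bars, percent), for Rcor1 to Rcor3 on the left and for Hdac1 and Hdac2 on the right. Rcor2 holds 81.1 to 93.0% in all libraries, and Hdac2 holds 87.5 to 88.3% in NPs against 73.2 to 74.6% in ESCs. Reads with several placements were not counted, which lowers Hdac1 and raises the share of Hdac2.

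Hdac1 and Hdac2 encode the catalytic deacetylases shared by both arms of REST. Hdac2 (ENSMUSG00000019777, chromosome 10, 36974544 to 37001889) stood at 37.5, 40.8 and 37.4 RPKM in ESCs, at 51.6, 60.2 and 69.9 in NPs and at 52.3, 60.1 and 55.4 in TET TKO ESCs. The ESC libraries lay below the other 6. The log2 difference from ESCs was 0.64 ± 0.13 SE in NPs (adjusted p = 0.00314, edgeR) and 0.42 ± 0.09 SE in TET TKO ESCs (adjusted p = 0.0126), neither past 0.001. DESeq2 gave 0.000107 for NPs.

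Hdac1 (ENSMUSG00000028800, chromosome 4, 129516104 to 129542713) stood at 13.8, 13.9 and 13.3 RPKM in ESCs, at 7.18, 8.64 and 9.28 in NPs and at 23.4, 27.1 and 21.5 in TET TKO ESCs. The 3 groups did not overlap, with NPs lowest and TET TKO ESCs highest. The log2 difference from ESCs was -0.72 ± 0.14 SE in NPs (adjusted p = 0.00223, edgeR) and 0.69 ± 0.11 SE in TET TKO ESCs (adjusted p = 0.00353), and DESeq2 put both past 0.001 (9.24e-07 and 3.64e-06). Hdac1 is the least certain of the 9 levels, because 37.3% of the 2857 windows of 50 bases in its exons, the read length, occurred elsewhere in the genome, mostly in the gene Gm10093, and reads with several placements were not counted. For the other 8 genes this share was at most 1.25%. Gm10093 itself held 349 to 359 counts per ESC library, 142 to 265 per NP library and 749 to 940 per TET TKO library, beside 1009 to 1125, 527 to 741 and 6216 to 6660 for Hdac1.

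The deacetylase genes can be set against each other in the same way. Hdac2 made up 73.8% ± 0.695 of the summed RPKM of the pair for ESCs, 87.8% ± 0.411 for NPs and 70.0% ± 1.73 for TET TKO ESCs (SD, n = 3), and no group overlapped another. The exact permutation test again gave its smallest possible value, p = 0.1 two-sided, for each comparison with ESCs. Without division by gene length the Hdac2 shares were 78.6, 90.4 and 75.2%, in the same order. Of the 50-base exon windows, 37.3% occurred elsewhere in the genome for Hdac1 and 0% for Hdac2. Leaving out reads with several placements lowers the level of Hdac1, so the Hdac2 shares are likely too high in every group.

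Kdm1a encodes LSD1, the demethylase that CoREST ties to REST. Kdm1a (ENSMUSG00000036940, chromosome 4, 136550540 to 136602723) stood at 94.6, 93.0 and 92.9 RPKM in ESCs, at 73.4, 66.8 and 64.1 in NPs and at 89.3, 70.8 and 89.2 in TET TKO ESCs. All ESC libraries lay above the other 6. It was the second highest of the 9 genes in ESCs and NPs. The log2 difference from ESCs was -0.47 ± 0.10 SE in NPs (adjusted p = 0.00302, edgeR) and -0.29 in TET TKO ESCs, with a 95% interval of -0.51 to -0.07 (adjusted p = 0.0869). DESeq2 gave 7.26e-06 for NPs.

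Ehmt2 encodes G9a. Ehmt2 (ENSMUSG00000013787, chromosome 17, 34898469 to 34914052) stood at 38.9, 40.6 and 38.3 RPKM in ESCs, at 67.2, 44.0 and 41.0 in NPs and at 47.9, 47.2 and 32.2 in TET TKO ESCs. NP replicate 1 stood apart from the other two NP libraries, as it did for Rcor2, and TET TKO libraries lay on both sides of the ESC range. The log2 difference from ESCs was 0.36 ± 0.18 SE in NPs (adjusted p = 0.115, edgeR) and 0.09 without NP replicate 1. For TET TKO ESCs it was -0.01, with a 95% interval of -0.31 to 0.29 (adjusted p = 0.975), and its sign turned under 4 alternatives, with values of 0.01 to 0.16.

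The order of the levels differed between the groups. In ESCs the mean RPKM ran from Rcor2 (127) through Kdm1a (93.5), Rest (72.1), Sin3a (68.0), Ehmt2 (39.2), Hdac2 (38.6), Hdac1 (13.7) and Rcor1 (9.49) to Rcor3 (0.368), and the ranges of Rest and Sin3a and of Ehmt2 and Hdac2 overlapped. In NPs the order was Rcor2 (106), Kdm1a (68.1), Hdac2 (60.6), Ehmt2 (50.7), Sin3a (35.1), Rcor1 (15.4), Rest (9.43), Hdac1 (8.37) and Rcor3 (0.897). There Kdm1a and Hdac2, Hdac2 and Ehmt2, and Rest and Hdac1 overlapped. Rest had a mean above Rcor1 in ESCs and below it in NPs, with no overlap of these ranges in either group. In TET TKO ESCs Kdm1a (83.1), Rest (81.2) and Rcor2 (75.7) formed the top with overlapping ranges between neighbours, followed by Hdac2 (55.9), Sin3a (49.8) and Ehmt2 (42.4), whose neighbours also overlapped, and then Hdac1 (24.0), Rcor1 (13.3) and Rcor3 (0.707), which did not.

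Between TET TKO ESCs and ESCs, 0 of the 9 genes passed the adjusted p threshold of 0.001 by edgeR, against 3.27% of the 13939 genes tested. At an unadjusted p under 0.05, 7 of the 9 passed, against 45.1% of all genes. At an adjusted p under 0.05 the count was 5 of 9 (Rcor2, Sin3a, Hdac1, Hdac2 and Rcor1), against 33.6%, and DESeq2 put 3 of the 9 (Rcor2, Sin3a and Hdac1) past 0.001, against 20.5% of all genes. The ranges of ESCs and TET TKO ESCs did not overlap for 7 of the 9, against 51.8% of all genes. The median size of the log2 change was 0.42 for the 9 genes and 0.39 for all genes. NPs and TET TKO ESCs were both compared with the same 3 ESC libraries, so the 2 sets of differences are not independent.

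The partners of the REST complexes were counted from lists of known subunits. Of 8 tested CoREST and LSD1 partners, 1 rose and 2 fell in NPs, with a median log2 change of 0.40 over the list against 0.03 over all genes, of which 17.8% rose and 16.2% fell. Zmym3, a zinc finger subunit of the LSD1 complex, fell from 19.4, 19.7 and 17.6 to 8.94, 9.35 and 8.61 RPKM (2.13-fold, adjusted p = 3.50e-05, edgeR). Zfp217, a zinc finger protein that binds CoREST, fell 1.93-fold (adjusted p = 0.000511). Without NP replicate 1 the count was 2 up and 1 down. Zmym3 was also the only listed partner or cofactor that edgeR called in TET TKO ESCs, at 11.2, 10.02 and 11.2 RPKM (fell 1.90-fold, adjusted p = 0.000735), where the list had a median of -0.19.

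Of 16 tested subunits and relatives of SIN3 and NCoR deacetylase complexes, none rose and 3 fell in NPs, with a median log2 change of 0.09. Arid4a, a SIN3 subunit, fell from 10.6, 10.4 and 10.1 to 4.71, 4.89 and 5.14 RPKM (2.13-fold, adjusted p = 8.10e-05, edgeR). Sap130, a further SIN3 subunit, fell 1.74-fold (adjusted p = 0.000314), and Ncor1, the scaffold of a separate HDAC3 complex, fell 1.65-fold (adjusted p = 0.000225). The other 13 did not pass. The share that fell was close to that of all genes, and the median size of change, 0.27, was below the 0.83 of all genes.

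Of 10 tested G9a partners and H3K9 methylation genes, 2 rose and 2 fell in NPs (median log2 change 0.29), shares near the 17.8% and 16.2% of all genes. Suv39h1, another H3K9 methyltransferase, rose from 3.97, 3.65 and 3.01 to 16.9, 18.2 and 18.1 RPKM (4.96-fold, adjusted p = 4.66e-06, edgeR). Wiz, a zinc finger partner of G9a, rose 2.46-fold (adjusted p = 0.000525). Cdyl, which links REST to G9a, fell 1.96-fold (adjusted p = 0.000751), and Setdb1, a methyltransferase of the same mark, fell 1.95-fold (adjusted p = 9.11e-05).

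Among 15 tested cofactors and controls of REST, 7 rose and 3 fell in NPs (median log2 change 0.46), against 17.8% and 16.2% of all genes. Srrm4, a splicing factor that directs the neural isoform of Rest, rose from 0.395, 0.280 and 0.473 RPKM to 10.7, 4.02 and 8.01 RPKM (19.6-fold, adjusted p = 3.26e-05, edgeR), but it was under 1 RPKM in every ESC library and so was tested only through its NP level. Prickle1, a LIM domain protein that helps place REST in the nucleus, rose 4.66-fold (adjusted p = 4.99e-05), and the corepressor Ctbp1 rose 3.36-fold (adjusted p = 1.76e-05). Its paralog Ctbp2 fell 2.68-fold, from 56.4, 57.1 and 49.6 to 19.7, 19.2 and 22.4 RPKM (adjusted p = 2.11e-05). Usp7, a deubiquitinase that stabilises REST, fell 2.69-fold (adjusted p = 8.95e-06), and the Polycomb subunit Suz12 fell 2.71-fold (adjusted p = 7.93e-05). The phosphatase genes Ctdsp1, Ctdsp2 and Ctdspl also rose, by 2.03- to 3.27-fold. With the TET knockout none of the SIN3, G9a or cofactor lists had a call by edgeR, against 3.27% of all genes. The counts were 0 of 16, 0 of 10 and 0 of 14, with medians of -0.01, 0.19 and 0.13. In the same order 7, 5 and 5 genes had an unadjusted p under 0.05, against 45.1% of all genes. DESeq2 called 4, 1 and 4, against 20.5% of all genes.

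**Figure D4:**
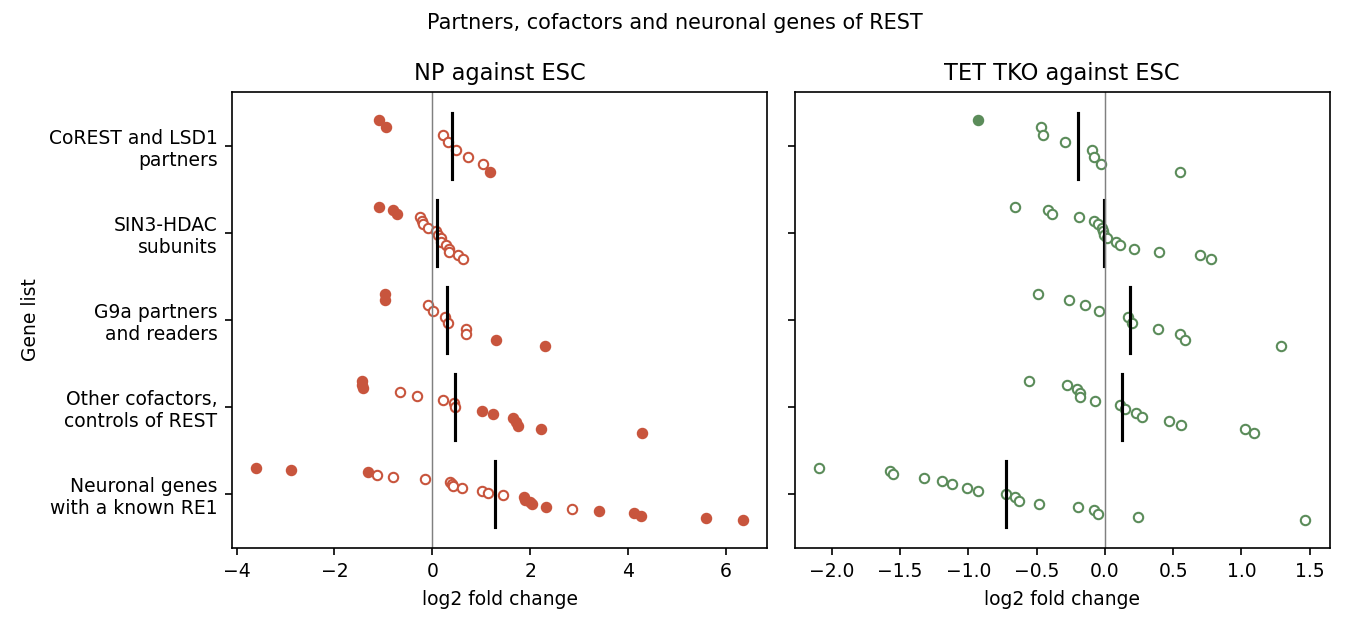
Log2 fold change of each tested gene in 5 lists of REST partners, cofactors and neuronal genes, in NPs (left) and TET TKO ESCs (right) against ESCs. Filled points passed an adjusted p of 0.001, and black bars are list medians. The median of the neuronal list is 1.29 over 24 genes in NPs, 8 of them tested only through their NP level, and -0.73 over 17 genes in TET TKO ESCs, so the panels do not hold the same genes.

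Of 30 neuronal genes listed as known carriers of an RE1, 24 were tested in NPs, of which 10 rose and 3 fell, against 17.8% and 16.2% of all genes, and 6 stayed under the level filter. That count is shaped by the filter: 8 of the 24, of which 6 are among the 10 that rose, were under 1 RPKM in every ESC library and were tested only through their NP level, and Grin1 was tested only through its ESC level. Without NP replicate 1 the count was 6 up and 3 down. NP replicate 1 had the highest summed level of the list, 339 RPKM against 177 and 255.9 in the other NP libraries and 170 to 195 in ESCs. It also had the highest summed neuron markers, 192 against 81.7 and 154. Tubb3 and Stmn2 are in both lists, and Tubb3 alone ranged from 56.8 to 148.8 RPKM in NPs, so these sums are not independent. Kcnc1, a potassium channel gene, rose from at most 0.0194 RPKM in ESCs to 1.95, 0.661 and 1.01 (adjusted p = 3.04e-05, edgeR), Chgb, a granin of secretory vesicles, rose from at most 0.178 to 9.25, 3.09 and 4.49 (adjusted p = 0.000123), and Snap25, a synaptic fusion protein gene, rose from at most 0.102 to 0.940, 0.733 and 1.21 (adjusted p = 0.00026). In contrast, Stmn2, a microtubule regulator of neurons, fell from 53.3, 51.0 and 64.0 to 8.03, 5.54 and 9.17 RPKM (7.46-fold, adjusted p = 8.90e-06), Grin1, a glutamate receptor gene, fell 12.1-fold (adjusted p = 0.00029), and Chga, another granin, fell 2.50-fold (adjusted p = 0.000576). The lower Rest level of NPs was found beside neuronal genes that moved in both directions. From the same list 17 genes were tested in TET TKO ESCs and 0 passed by edgeR, against 3.27% of all genes. Of the 17, 10 had an unadjusted p under 0.05, against 45.1% of all genes. DESeq2 called 1 up and 5 down, against 20.5% of all genes called.

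An exact form of the REST element was searched for in the RefSeq promoter windows of GRCm38.p6, each 250 bases before to 50 after a start site. The search was for the left part CAGCACC and the right part GGACAG of the RE1 with 2 bases between them, on both strands. Of 32851 windows, 12 held both parts (0.0365%), in 11 genes. None of the 9 windows of the 7 corepressor genes with an entry held them, nor did those of the 20 listed neuronal genes with an entry. With so few matches among all windows, none was likely for the corepressor genes. The neuronal genes were listed as carriers of an RE1, so the search misses elements that lie elsewhere or differ in letters. The left part alone was in 7.14% and the right part alone in 22.2% of all windows, and of the corepressor windows 0 and 2 held them. The sites of the 6 genes tested in NPs follow (the filter used RPKM scaled over the 6 libraries of the comparison, by which Ttc9b just reached 1), with both parts in capitals and 7 flanking bases on each side, because they show the element as it stands in these promoters.

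Lhx3, chr2:26208269-26208297, minus strand: cctccttCAGCACCgcGGACAGcgccagc

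Sptbn4, chr7:27396275-27396303, plus strand: gcggctcCAGCACCacGGACAGttcccgg

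Ttc9b, chr7:27653935-27653963, minus strand: tgagcatCAGCACCggGGACAGcgcgccg

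Lca5, chr9:83441283-83441311, plus strand: cggagccCAGCACCcaGGACAGaccgaaa

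Fbll1, chr11:35799051-35799079, plus strand: gtccagtCAGCACCagGGACAGctacctc

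Ogdhl, chr14:32321909-32321937, plus strand: gggaggtCAGCACCtcGGACAGcgagggc

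The site of Lhx3 was centred 34 bases before its start and that of Sptbn4 90 bases before it. The RNA of these genes did not move one way in NPs. Lhx3, a LIM homeodomain factor of motor neurons, rose from 0.0463, 0.0301 and 0.0668 to 1.28, 1.12 and 0.624 RPKM (adjusted p = 8.83e-05, edgeR), on 2 to 5 counts per ESC library, and was tested only through its NP level. Sptbn4, a spectrin of axon initial segments, fell from 4.92, 5.34 and 5.56 to 0.623, 0.628 and 0.289 RPKM (10.4-fold, adjusted p = 1.80e-05). The other genes did not pass, with adjusted p of 0.00138 for Fbll1, 0.00133 for Ogdhl, 0.101 for Lca5 and 0.956 for Ttc9b. Ogdhl stood at 39.9, 40.0 and 46.9 RPKM in ESCs and at 27.0, 18.7 and 15.6 in NPs, the highest level among these genes. A match is a description of letters and not of binding.

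The level of REST protein was not measured in the samples used here, but fragments inserted with an intact REST motif (WT) or a scrambled one (Sc) were. The study's methods list a REST antibody for chromatin immunoprecipitation. The study also reports regions of lower methylation at the intact REST motif in ESCs and NPs, with either kind of insert. For factors that demethylate their sites, it describes most of this activity as weak or missing in TET TKO ESCs. It does not name REST in that statement. With an insert that was methylated beforehand (+SssI), mean CpG methylation of WT against Sc was 10.97 against 63.4% in ESCs (Rest at 72.1 RPKM). It was 54.2 against 93.2% in NPs (9.43 RPKM) and 89.4 against 81.8% in TET TKO ESCs (81.2 RPKM). WT minus Sc was -52.4 ± 6.59, -39.0 ± 4.57 and 7.68 ± 10.03 percentage points over 24 CpGs (95% counting interval, 1 pool each). The ESC difference was smaller in size when averaged within runs, so its distance from the NP value depends on how runs are combined. With an insert that was not methylated beforehand, WT against Sc was 11.5 against 57.8% in ESCs and 47.9 against 93.4% in NPs. WT minus Sc was thus -46.3 ± 17.3 and -45.4 ± 6.21 points, a pair of values whose intervals overlap. The ESC Sc fragment there rested on a median of 34 reads per CpG, and on as few as 19.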

How the data were processed

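RNA-seq values came from 3 deposited tables of gene counts (9 libraries, 3 per group). Per the file headers the authors counted reads on exons with featureCounts 1.6.2 and Ensembl 89 on GRCm38, without regard to strand and without reads placed at several loci. The submitters' notes also list STAR 2.6.1b and, for the bisulfite amplicons, Bismark 0.20.0. The methylation tables deposited by the authors hold a percent and a read count per CpG, and the reads of runs of 1 pool were summed over CpGs with at least 10 reads. All columns of samples were matched.

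From the counts, edgeR 4.0.16 (R 4.3.3) was run on the 2 groups of a comparison with TMM library sizes and its quasi-likelihood test, over genes with at least 1 RPKM (scaled over those 6 libraries) in at least 1 library, with Benjamini-Hochberg adjustment over all of them. The threshold of 0.001 and the limit of 3-fold are those of the study's methods. Intervals of fold changes are 95% intervals from the SE. RPKM used TMM library sizes over the 9 libraries and the gene lengths in the files. The fits used TMM sizes from the filtered genes of their 2 groups, so ratios and ranges of RPKM can differ from the fold changes. In ESCs and TET TKO ESCs, Rest had means of 72.1 and 81.2 RPKM beside a log2 difference of 0.05. Ehmt2 had means of 39.2 and 42.4 RPKM beside -0.01. Every one of the 9 genes is described, and of each list the 3 largest rises and falls past the threshold are named, apart from genes not reported here. The members and lists were chosen with earlier results of these data known. The procedure was tested on simulated counts first. Alternatives included DESeq2 1.42.0. Replicates are called biological by the study, and ESC libraries 1 and 2 were closer (chi-square per degree of freedom 2.37) than all other pairs (14.0 to 194), but further apart than counting noise. This measure grows with depth, and the highest values (109 to 194) were those of the deeper TET TKO libraries, so they are not like for like. Methylation intervals cover counting error only. For the count tables, 51633 of 51912 gene identifiers matched a symbol.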

Additional observations from a re-analysis of the deposited data

How the results depend on the processing

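Of 222 fold changes of the 9 genes under other settings, 193 kept their direction and side of the threshold, 17 newly passed 0.001, 6 no longer passed and 6 turned sign. The 6 that no longer passed were all Rcor1 in NPs. The sign turned for Rest in TET TKO ESCs with total counts alone (-0.0037) and with a library left out (range -0.025 to 0.13, lowest without TET TKO replicate 2), and for Ehmt2 in TET TKO ESCs without a filter (0.10), with at least 10 counts in every library (0.026) and with a library left out (range -0.11 to 0.16, above 0 without ESC replicate 2 or TET TKO replicate 3). The cause was not tested.

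Members past the threshold in NPs, 3 as reported, were 7 with DESeq2, 5 without a filter, 1 at 3-fold and 7 at an adjusted p of 0.05. They were 2 to 6 with a library left out, highest without NP replicate 1. Of all genes, 33.9% passed as reported, 49.2% with DESeq2, 22.3% at 3-fold and 64.1% at 0.05. Shares of all genes without a filter or with a library left out are not given. In TET TKO ESCs, 0 as reported became 3 with DESeq2, 2 without a filter and 5 at 0.05, and stayed 0 with any library left out. Of all genes there, 3.27% passed as reported, 20.5% with DESeq2 and 33.6% at 0.05. All genes past the threshold in NPs were 5157, 7471 with DESeq2, 8012 without a filter, 3395 at 3-fold, 9738 at 0.05 and 2932 to 4668 with a library left out, lowest without ESC replicate 1. In TET TKO ESCs they were 456, 2860 with DESeq2, 2432 without a filter, 908 with the replicate block, 298 at 3-fold, 4677 at 0.05 and 50 to 506 with a library left out, lowest without ESC replicate 1. The 0.05 threshold was added after the data were seen.

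Deviations of same-numbered ESC and NP libraries correlated at -0.08, -0.02 and -0.20, against -0.14 to 0.18 for other numbers, so the replicate numbers showed no pairing there. Those of same-numbered ESC and TET TKO libraries correlated at -0.11, 0.41 and 0.26, against -0.47 to 0.26 for other numbers. Whether replicate numbers pair these samples was not settled. With the replicate block, 4621 genes passed in NPs and Rcor1 did not (adjusted p = 0.00263, edgeR). Without division by length the Rcor2 share was 87.1, 75.5 and 73.4% for ESC, NP and TET TKO libraries, and the Hdac2 share 78.6, 90.4 and 75.2%. Averaged within runs, WT minus Sc in ESCs with the premethylated insert was -43.8 points. With runs summed it was -52.4 ± 6.59 in ESCs and -39.0 ± 4.57 in NPs. Levels moved by more than 1 SD in 6 of 27 cases with total counts, and all 27 as TPM, a different unit. Depth does not limit the 9 genes except Rcor3, which had 100 counts in its lowest library.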
